A study of Mus musculus with 9 samples.

Results

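The 10 genes described here are Hif1a, the prolyl hydroxylase genes Egln1 and Egln3, and 7 hypoxia-inducible genes outside glycolysis, namely Vegfa, Adm, Bnip3, Ndrg1, Ankrd37, Ero1a and P4ha1. They were chosen by gene symbol, with earlier results of these same libraries known, so their differences between groups are given as descriptions and carry no test of their own. They are 10 of the 56691 genes in the deposited table, and all 10 were among the 11995 genes that were tested. RNA came from RAW264.7 cells, an established mouse macrophage-like line that turns into osteoclast-like cells when given RANKL, the cytokine that drives osteoclast formation. Each of the 3 groups held 3 libraries. The control cells received no RANKL, the RANKL cells received RANKL at 50 ng/mL, and the RANKL + UD cells received RANKL with uridine, a pyrimidine nucleoside abbreviated UD. Cells for molecular work were collected on day 3, and the uridine dose of these libraries is not given in the sources used here. All 3 groups are the same line with no engineered allele. The labels call the replicates biosamples and do not say whether they were separate cultures, so every p-value below measures the spread between these samples. No low-oxygen treatment is named for any group.

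Hypoxia-inducible factor 1 is a transcription factor made of an unstable alpha subunit, encoded by Hif1a, and a constant partner, encoded by Arnt. In the presence of oxygen, prolyl hydroxylases of the Egln family mark the alpha subunit, the von Hippel-Lindau ubiquitin ligase recognizes the mark, and the protein is degraded. When oxygen is scarce, or when the hydroxylases are inhibited, the alpha subunit accumulates and binds short DNA elements near its target genes. Control is therefore largely at the protein level, which RNA libraries do not measure. In bone, osteoclasts work in poorly oxygenated surroundings, and this pathway is known for its part in their formation and energy supply.

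The core of a hypoxia response element reads ACGTG or GCGTG, and 4 promoters are shown, chosen for their different courses of level: Bnip3, which ended above control in RANKL + UD, P4ha1, which ended near it, Ero1a, which ended below it, and Ankrd37, which was lower at both steps. A window of 250 bases before to 50 bases after the gene start was taken from RefSeq on build GRCm38.p6, and 9 of the 10 genes matched an entry, with 10 windows because Vegfa has several starts. Capitals mark ACGTG or GCGTG on either strand, and each sequence is written 5′ to 3′ in the direction of its gene. Bnip3 lies at chr7:138909457-138909756 on the minus strand, Ero1a at chr14:45318523-45318822 on the minus strand, Ankrd37 at chr8:45999801-46000100 on the minus strand and P4ha1 at chr10:59323046-59323345 on the plus strand.
Bnip3: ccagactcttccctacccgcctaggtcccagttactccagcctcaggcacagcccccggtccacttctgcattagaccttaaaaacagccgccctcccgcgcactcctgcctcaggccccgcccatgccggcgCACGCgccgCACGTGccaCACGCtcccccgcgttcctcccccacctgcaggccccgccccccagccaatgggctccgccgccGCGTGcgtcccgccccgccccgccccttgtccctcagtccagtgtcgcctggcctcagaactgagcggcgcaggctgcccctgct
Ero1a: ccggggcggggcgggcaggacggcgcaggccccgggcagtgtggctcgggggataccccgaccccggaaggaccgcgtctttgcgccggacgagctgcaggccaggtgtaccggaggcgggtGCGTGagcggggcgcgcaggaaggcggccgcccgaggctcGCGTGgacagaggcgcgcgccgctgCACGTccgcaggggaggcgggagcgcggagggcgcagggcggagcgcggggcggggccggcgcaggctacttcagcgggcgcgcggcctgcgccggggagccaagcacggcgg
Ankrd37: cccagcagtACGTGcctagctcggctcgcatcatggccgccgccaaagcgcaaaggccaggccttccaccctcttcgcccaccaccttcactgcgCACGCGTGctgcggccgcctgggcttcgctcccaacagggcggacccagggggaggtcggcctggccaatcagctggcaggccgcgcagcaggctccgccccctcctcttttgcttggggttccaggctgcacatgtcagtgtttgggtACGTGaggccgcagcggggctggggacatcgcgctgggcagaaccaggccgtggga
P4ha1: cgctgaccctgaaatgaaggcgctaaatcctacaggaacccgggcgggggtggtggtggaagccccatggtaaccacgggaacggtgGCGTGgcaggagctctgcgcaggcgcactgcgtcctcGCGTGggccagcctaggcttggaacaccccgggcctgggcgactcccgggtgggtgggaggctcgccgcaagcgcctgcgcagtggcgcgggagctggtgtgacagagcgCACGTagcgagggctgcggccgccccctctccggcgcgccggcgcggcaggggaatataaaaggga
In the Bnip3 window the capitals CACGTG, 108 bases before the start, read ACGTG on both strands, so these 2 matches overlap. Ero1a held 1 ACGTG 63 bases before its start, Ankrd37 held 1 at 6 bases before its start and another at 241, and P4ha1 held 1 at 16. In Ankrd37 the run CACGCGTG holds GCGTG on both strands, and these overlap as well. ACGTG was present in 8 of the 10 windows, against 19.6% of all 32851 promoter windows and 26.5% of the 10649 windows that belong to tested genes. GCGTG was present in 7 of the 10, against 32.4% of all windows and 51.2% of those of tested genes. Either motif was present in 9 of the 10 windows, against 43.8% of all windows and 63.0% of those of tested genes. The window without either was the Vegfa window at chr17:46032328-46032627 on the minus strand. The other Vegfa window, at chr17:46025114-46025413, lies downstream of it in the direction of the gene. All motifs counted for Vegfa are in that downstream window, so its upstream start had none. Counted by gene, all 9 matched genes had a window with a motif, as did 5775 of the 8369 tested genes with a window. These shares describe letters in a window and do not show binding, and the genes were picked as hypoxia-inducible to begin with.

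Most of the 10 genes stood higher with RANKL than in control and lower in RANKL + UD than in RANKL. Against control, 7 were called higher with RANKL (Adm, Bnip3, Vegfa, Ero1a, Egln1, P4ha1 and Ndrg1), 2 were called lower (Egln3 and Ankrd37), and Hif1a was not called. A call is an adjusted p under 0.05 by edgeR (quasi-likelihood), adjusted over all tested genes by the Benjamini-Hochberg method. Among all tested genes, 27.3% were called higher and 30.2% lower in that comparison. Against RANKL, 9 of the 10 were called lower with RANKL + UD and 0 higher, where 20.2% of tested genes were lower and 18.6% higher. Of the 10, 0 were higher at an unadjusted p under 0.05 in edgeR or by DESeq2, and 1, Hif1a, was higher by limma on log2 FPKM. Nothing is read from these member counts, since the genes were chosen with the results known. The median log2 fold change of the 10 was 0.50 with RANKL, where that of all tested genes was -0.03, and -0.72 with uridine added, where that of all tested genes was 0.005. The 2 comparisons share the RANKL libraries, so a RANKL library that read high would raise the first and lower the second.

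The genes called higher with RANKL ended at different levels against control once uridine was added. Adm and Bnip3 stayed above control, Egln1, Vegfa and P4ha1 were not called against it, and Ndrg1 and Ero1a ended below it. Egln3 and Ankrd37 were lower at both steps. RANKL + UD against control therefore gave 2 genes higher, 4 lower and 4 not called, in a comparison where 26.7% of tested genes were higher and 27.3% lower. The plot of levels by library shows that replicates lay close together for most genes.

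Positions follow the deposited table, whose build could not be settled, since the labels name mm10 but none of these 10 genes has the same coordinates as in the GRCm38 annotation. They are therefore not on the scale of the promoter windows above. On chromosome 12, Hif1a (ENSMUSG00000021109) spans 73948149 to 73994304 on the plus strand and Egln3 (ENSMUSG00000035105) spans 54225767 to 54250646 on the minus strand. On chromosome 8, Egln1 (ENSMUSG00000031987) spans 125635326 to 125676063 and Ankrd37 (ENSMUSG00000050914) spans 46449939 to 46458744, both on the minus strand. On chromosome 7, Adm (ENSMUSG00000030790) spans 110226868 to 110229027 on the plus strand and Bnip3 (ENSMUSG00000078566) spans 138492565 to 138511248 on the minus strand. The others lie on separate chromosomes. Vegfa (ENSMUSG00000023951) spans 46327919 to 46343295 on chromosome 17, Ndrg1 (ENSMUSG00000005125) 66801167 to 66841489 on chromosome 15 and Ero1a (ENSMUSG00000021831) 45520544 to 45556228 on chromosome 14, all on the minus strand. P4ha1 (ENSMUSG00000019916) spans 59159118 to 59209126 on the plus strand of chromosome 10.

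**Figure D1:**
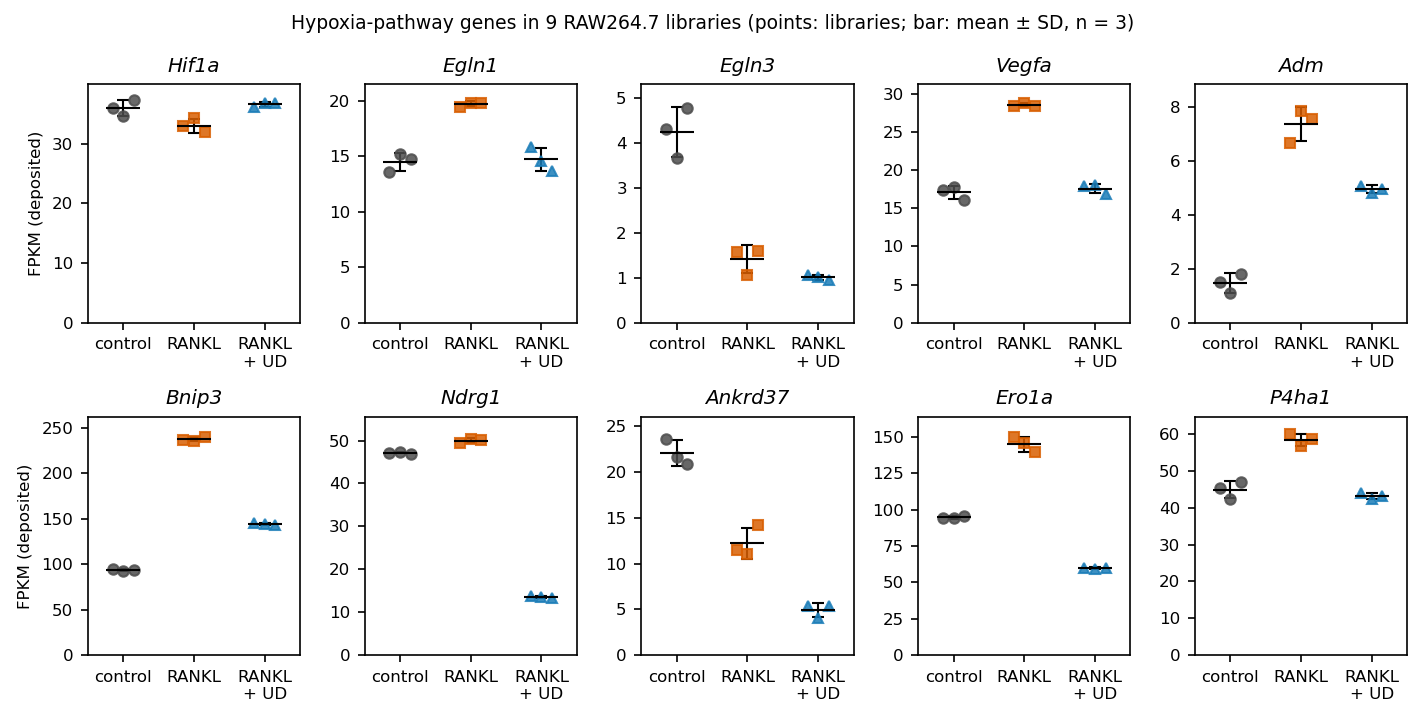
Deposited FPKM (vertical axes, each starting at 0) of the 10 genes in 3 control, 3 RANKL and 3 RANKL + UD libraries, with points for libraries and bars for mean ± SD. Bnip3 was highest in the RANKL libraries at 236.0 to 240.1, and Ndrg1 was lowest in the RANKL + UD libraries at 13.39 to 13.87.

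Levels are given in FPKM, reads scaled to gene length and to the library's total count. How fully the reads of each gene were counted was not tested, so orders and shares between genes describe the deposited values. Fold changes come from a fit that scales libraries by TMM, and the factors were 0.959 to 0.962 for RANKL libraries and 1.01 to 1.03 for the others. FPKM ratios of RANKL to control are therefore lower than the fitted folds, and those of RANKL + UD to RANKL are higher. With total counts in place of TMM, calls over all tested genes went from 3278 higher and 3628 lower to 2579 and 4421 for RANKL against control, and from 2233 and 2418 to 3350 and 1707 for RANKL + UD against RANKL. With 3 libraries a group, the smallest two-sided p of an exact permutation test is 0.1, so for single genes the separation of libraries is stated instead. In bulk RNA, fewer cells of a type and less RNA per cell cannot be told apart.

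Hif1a itself, the gene of the oxygen-regulated subunit, barely moved. Its FPKM was 36.05, 34.61 and 37.39 in control, 32.97, 34.23 and 31.91 in RANKL, and 36.13, 36.83 and 36.85 in RANKL + UD. On FPKM the RANKL libraries lay just under the others with no overlap, and control and RANKL + UD overlapped. On the TMM scale of the fit, RANKL and control overlapped. As log2 differences from the control mean, RANKL replicate 2 (0.012) lay above control replicates 1 (0.009) and 2 (-0.064). The fitted log2 fold change was -0.04 ± 0.05 (SE, n = 3 libraries a group) for RANKL against control, with a 95% interval of -0.14 to 0.06. For RANKL + UD against RANKL it was 0.06 ± 0.05, with an interval of -0.04 to 0.16. Scaling by total counts gave -0.125 and 0.148 instead, and both then passed the threshold. Hif1a is thus the gene among the 10 whose call depended on the scaling in both comparisons.

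The hydroxylases moved apart from each other. Egln1, which encodes PHD2, the main oxygen sensor that marks the alpha subunit, read 13.61, 15.2 and 14.7 FPKM in control, 19.43, 19.82 and 19.81 in RANKL, and 15.8, 14.52 and 13.68 in RANKL + UD. The RANKL libraries lay above all 6 others, and the control and RANKL + UD libraries overlapped. The log2 fold change was 0.53 ± 0.07 with RANKL and -0.51 ± 0.07 with uridine added, and the difference between RANKL + UD and control was 0.02, with a 95% interval of -0.12 to 0.16.

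Egln3, which encodes PHD3 and is itself a known target of the factor, read 4.33, 3.67 and 4.78 FPKM in control, 1.58, 1.07 and 1.61 in RANKL, and 1.07, 1.01 and 0.96 in RANKL + UD. Control lay above both other groups, while 1 RANKL library reached the level of the RANKL + UD libraries. Its log2 fold change was -1.49 ± 0.18 with RANKL and -0.57 ± 0.21 with uridine added. The second of these no longer passed the threshold in several other fits, among them edgeR on the 6 libraries of that comparison alone (-0.57). The lowest count of Egln3 was 44 reads in a library.

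Egln2, the remaining hydroxylase of the family, was not called in either comparison, at mean FPKM of 6.33 in control, 7.02 in RANKL and 6.74 in RANKL + UD. Of the summed FPKM of the 3 hydroxylase genes, Egln1 made up 57.8% ± 2.84 (SD, n = 3) in control, 70.0% ± 0.21 in RANKL and 65.4% ± 1.37 in RANKL + UD. Egln3 made up 17.0% ± 2.59, 5.05% ± 1.1 and 4.52% ± 0.0455 in the same order. The share of Egln3 in control lay above that of all 6 RANKL-treated libraries.

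Vegfa and Adm encode secreted products, a growth factor for blood vessels and the vasodilator peptide adrenomedullin. Vegfa read 17.4, 17.77 and 16.15 FPKM in control, 28.41, 28.83 and 28.43 in RANKL, and 17.93, 18.0 and 16.86 in RANKL + UD. RANKL libraries stood apart from all others, and the RANKL + UD libraries overlapped those of control. Its log2 fold change was 0.825 ± 0.05 with RANKL and -0.785 ± 0.05 with uridine added, which left 0.04 against control (95% interval -0.075 to 0.157).

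Adm was the gene among the 10 with the largest fold change on RANKL. It read 1.5, 1.09 and 1.82 FPKM in control, 6.65, 7.86 and 7.57 in RANKL, and 5.09, 4.81 and 4.97 in RANKL + UD. The 3 groups did not overlap, and RANKL + UD lay between the other two. The control values rest on 41, 35 and 47 reads, and 35 is the lowest count of any of the 10 genes in a library. The fitted difference was 5.36-fold higher with RANKL, or 2.42 ± 0.18 on the log2 scale, and 215 tested genes had a larger log2 fold change. With uridine added it was -0.65 ± 0.15, and Adm was still 1.77 ± 0.18 above control on the log2 scale.

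Bnip3 encodes a mitochondrial outer-membrane protein that takes part in the removal of mitochondria by autophagy. It read 94.67, 92.7 and 93.71 FPKM in control, 236.6, 236.0 and 240.1 in RANKL, and 145.3, 143.8 and 143.4 in RANKL + UD. No 2 groups overlapped, and the spread within each group was small beside the gaps between them. Bnip3 was 2.69-fold higher with RANKL (log2 1.43 ± 0.04) and 1.75-fold lower with uridine added (log2 -0.81 ± 0.04). Its paralog Bnip3l, with a related role, had mean FPKM of 41.2 in control, 78.3 in RANKL and 51.1 in RANKL + UD, and was called in both comparisons (log2 1.015 ± 0.05 with adjusted p = 1.01e-13 in edgeR, then -0.70 ± 0.05 with adjusted p = 4.09e-10).

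Ndrg1, a stress-responsive gene known as a marker of low oxygen, had the lowest level relative to RANKL of the 10 genes when uridine was added. It read 47.19, 47.32 and 46.96 FPKM in control, 49.34, 50.38 and 50.22 in RANKL, and 13.87, 13.53 and 13.39 in RANKL + UD. Control and RANKL differed little and RANKL + UD stood far below both. The log2 fold change was 0.17 ± 0.04 with RANKL, which missed the threshold when libraries were scaled by total counts (0.08). With uridine added Ndrg1 was 3.9-fold lower (log2 -1.96 ± 0.05), and 61 tested genes had a smaller log2 fold change. It was 3.46-fold lower than in control cells.

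Other genes of the NDRG family had other values. Ndrg4 had mean FPKM of 3.72 in control, 19.0 in RANKL and 15.0 in RANKL + UD, with log2 fold changes of 2.43 ± 0.07 (adjusted p = 3.29e-17 in edgeR) and -0.425 ± 0.06 (adjusted p = 1.63e-05). Ndrg2 fell by 0.20 on the log2 scale with RANKL (adjusted p = 0.00146), and Ndrg3 was not called in either comparison.

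Ankrd37, a small ankyrin-repeat gene used in hypoxia signatures, was lower at each step. It read 23.61, 21.65 and 20.9 FPKM in control, 11.47, 11.06 and 14.19 in RANKL, and 5.35, 4.02 and 5.38 in RANKL + UD. The 3 groups did not overlap. The log2 fold change was -0.76 ± 0.11 with RANKL and -1.39 ± 0.13 with uridine added, and RANKL + UD was 4.46-fold lower than control. Ankrd37 overlaps Ufsp2 on the opposite strand, whose mean FPKM was 19.9 in control, 26.5 in RANKL and 25.5 in RANKL + UD. Ufsp2 was higher with RANKL (log2 0.50), the opposite direction to Ankrd37. The libraries were made with a strand-marking kit per the labels, and the strand setting of the counting is not given in the sources used here, so how reads were divided between this pair was not tested.

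Ero1a and P4ha1 act in the endoplasmic reticulum. Ero1a encodes the oxidase that supplies oxidizing power for disulfide bonds, and it read 94.44, 94.05 and 95.69 FPKM in control, 150.1, 145.9 and 139.7 in RANKL, and 60.23, 59.22 and 60.23 in RANKL + UD. The RANKL libraries were the highest and the RANKL + UD libraries the lowest, with no overlap of any groups. Ero1a was 1.63-fold higher with RANKL (log2 0.70 ± 0.04), 2.57-fold lower with uridine added (log2 -1.36 ± 0.05) and 1.58-fold lower than control in the RANKL + UD cells. Its paralog Ero1b was not called with RANKL and fell by 0.21 on the log2 scale with uridine added (adjusted p = 0.00167 in edgeR).

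P4ha1 encodes the catalytic subunit of collagen prolyl hydroxylase, an enzyme separate from the Egln sensors. It read 45.31, 42.43 and 47.07 FPKM in control, 60.1, 56.7 and 58.59 in RANKL, and 43.9, 42.5 and 43.22 in RANKL + UD. RANKL lay above the other groups, which overlapped each other. Its log2 fold change was 0.47 ± 0.05 with RANKL, -0.52 ± 0.05 with uridine added and -0.055 against control, with a 95% interval of -0.16 to 0.05. P4hb, the partner subunit of the same enzyme and also a disulfide isomerase, had mean FPKM of 437 in control, 828 in RANKL and 748 in RANKL + UD. It rose by 1.01 on the log2 scale with RANKL (adjusted p = 3.18e-13 in edgeR) and fell by 0.23 with uridine added (adjusted p = 9.09e-04).

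**Figure D2:**
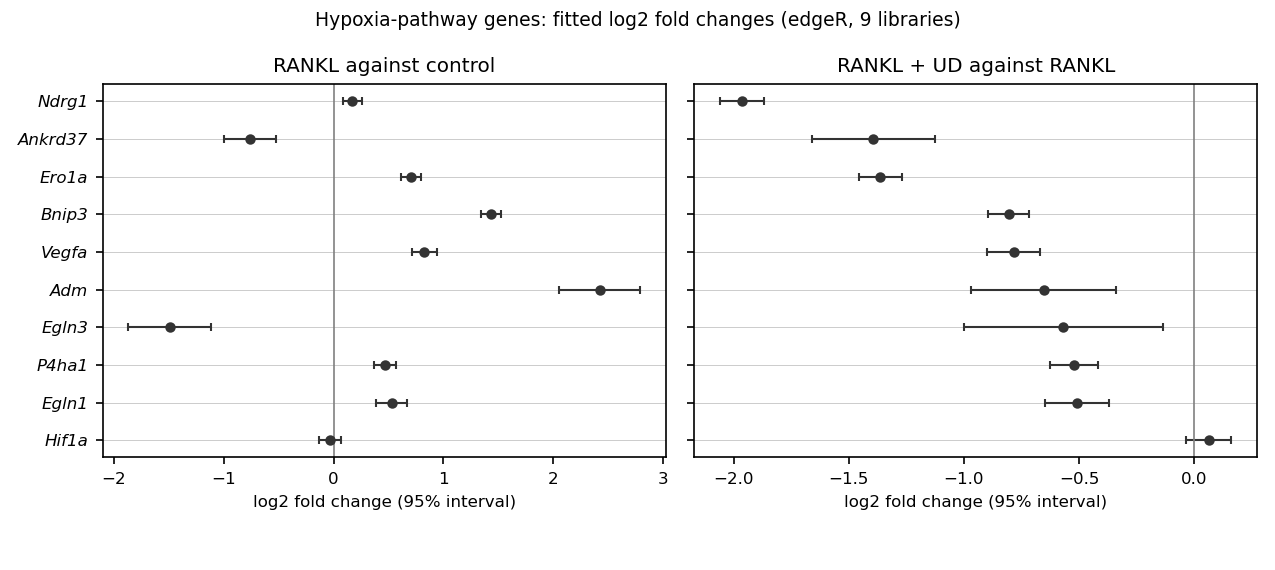
Fitted log2 fold changes (horizontal axes, points with 95% intervals) of the 10 genes for RANKL against control and for RANKL + UD against RANKL, ordered by the second comparison. Adm was highest on the left at 2.42, Ndrg1 lowest on the right at -1.96, and the Hif1a intervals included 0 in both panels.

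The separation of libraries, read on FPKM and so scaled by total count, can be set beside the calls. In RANKL against control, 7 of the 10 genes had all RANKL libraries above all control libraries and 3 had them all below, where 22.9% of tested genes were entirely above and 38.8% entirely below. In RANKL + UD against RANKL, 8 had all RANKL + UD libraries below and 1, Hif1a, had them all above, where 17.6% of tested genes were entirely below and 34.1% entirely above. Egln3 was the gene whose libraries overlapped.

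The order of levels among the 10 genes also differed by group. In control, Ero1a and Bnip3 were highest and their libraries overlapped, Ndrg1 and P4ha1 came next and overlapped as well, and Hif1a, Ankrd37, Vegfa, Egln1, Egln3 and Adm followed with each apart from the next. In RANKL, Bnip3 led, followed by Ero1a, P4ha1, Ndrg1, Hif1a, Vegfa, Egln1, Ankrd37, Adm and Egln3, and no neighbors overlapped. In RANKL + UD the order was Bnip3, Ero1a, P4ha1, Hif1a, Vegfa, Egln1, Ndrg1, Adm, Ankrd37 and Egln3, with overlap between Egln1 and Ndrg1 and between Adm and Ankrd37. Ankrd37 was the sixth in control and the ninth in RANKL + UD, and Adm was the last and the eighth.

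The pattern of each gene over the libraries was set beside those of other genes. Likeness was measured as the root mean square difference of log2 CPM (counts scaled to the size of the library), each gene centered on its own mean over the 9 libraries. For Bnip3 the nearest tested genes were Fcrl1 at 0.0777, Gcc1 at 0.0796 and Prr13 at 0.0916, while the nearest of the other 9 was Vegfa at 0.282, with 274 tested genes nearer. For Vegfa they were Golph3l at 0.0679, Osgin2 at 0.0702 and Wdr11 at 0.0741. Egln1 was the nearest of the other 9 to Vegfa at 0.148, with 72 tested genes nearer. For Hif1a, whose level was nearly flat, the nearest were Trappc8 at 0.0257, Cnot1 at 0.0259 and Nisch at 0.0348. The closest pair among the 10 was Egln1 and P4ha1 at 0.0871. All 9 points of each pattern share libraries and group structure, so these values are descriptions.

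The rest of the oxygen-sensing machinery had small differences at the RNA level with RANKL and, for most of its genes, with uridine added. Of 15 listed genes 12 were tested, and their log2 fold changes ran from -0.21 to 0.26 with RANKL and from -0.51 to 0.18 with uridine added. With RANKL 3 of the 12 rose, where 27.3% of all tested genes rose. These were Elob (0.26 ± 0.10, adjusted p = 0.0267 in edgeR), Eloc (0.23 ± 0.07, adjusted p = 0.00868) and Cul2 (0.185 ± 0.06, adjusted p = 0.00862). Their FPKM overlapped between groups. All 3 encode parts of the von Hippel-Lindau ligase, whose other listed parts, Vhl (-0.09) and Rbx1 (-0.045), were not called. Elob also overlaps the more abundant Srrm2 on the opposite strand. None of the 12 fell with RANKL, where 30.2% of all tested genes fell. At an unadjusted p under 0.05, 0 of the 12 fell in edgeR, and 0 fell in DESeq2 and limma. The 3 calls on RANKL were absent under total-count scaling and under limma, which gave 0.

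With uridine added, 4 of the 12 fell and 1 rose, where 20.2% of all tested genes fell and 18.6% rose. The largest difference was in Crebbp, which encodes a coactivator that the factor recruits (-0.51 ± 0.07, adjusted p = 5.7e-06). Siah2 and Siah1a, ubiquitin ligases that target the Egln proteins, had -0.41 ± 0.14 (adjusted p = 0.0224) and -0.395 ± 0.12 (adjusted p = 0.0136). The FPKM of Siah1a overlapped between RANKL and RANKL + UD libraries. Arnt, the gene of the partner subunit, fell by 0.27 ± 0.06 (adjusted p = 0.00224), with mean FPKM of 12.2 in control, 11.3 in RANKL and 9.95 in RANKL + UD. Hif1an, the asparaginyl hydroxylase that blocks coactivator binding, rose by 0.18 ± 0.07 (adjusted p = 0.0479), a call absent in DESeq2 and in each fit that left out 1 library. Vhl was not called in either of these comparisons. In RANKL + UD against control, 3 of the 12 were higher and 4 lower, among them Vhl (-0.27 ± 0.10, adjusted p = 0.0218 in edgeR). There 26.7% of all tested genes were higher and 27.3% lower. The other alpha subunits were scarcely present, with at most 12 counts of Epas1 and 9 of Hif3a in any library.

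Other hypoxia-inducible genes outside glycolysis gave a wider view than the 10. Of 30 listed, 23 were tested. With RANKL 16 rose and 4 fell (Bhlhe41, Plod2, Car12 and Wsb1), and 3 were not called, with a median log2 fold change of 0.74, where 27.3% of all tested genes rose and 30.2% fell. With uridine added 18 fell, 5 were not called and 0 rose, with a median of -0.565, and 0 rose at an unadjusted p under 0.05 in edgeR, or in DESeq2 and limma. Over all tested genes 18.6% rose and 20.2% fell in that comparison. This list too was made with earlier results known, so it is not independent support for the direction of the 10. Against control, 11 of the 23 were higher in RANKL + UD, 7 were lower and 5 were not called, where 26.7% of all tested genes were higher and 27.3% lower.

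Hilpda, which encodes a lipid droplet protein, read 6.84, 5.37 and 3.86 FPKM in control, 23.92, 24.3 and 25.1 in RANKL, and 12.59, 11.39 and 10.66 in RANKL + UD. These groups did not overlap, and the log2 fold changes were 2.27 ± 0.14 (adjusted p = 1.16e-11) and -1.165 ± 0.13 (adjusted p = 3.98e-07). Bhlhe40 and Bhlhe41 encode related transcriptional repressors and went in opposite directions with RANKL. Bhlhe40 rose by 2.10 ± 0.06 (adjusted p = 1.62e-17) and Bhlhe41 fell by 2.66 ± 0.10 (adjusted p = 1.79e-15), and both fell with uridine added, by 0.73 and 1.28. Ddit4, an inhibitor of mTORC1 signaling, had the largest fall of this list with uridine added, at -1.30 ± 0.21 (adjusted p = 5.69e-05), from mean FPKM of 4.4 to 1.88. Kdm3a, a histone demethylase gene, rose by 1.14 ± 0.05 with RANKL (adjusted p = 4.12e-14) and fell by 0.42 ± 0.05 with uridine (adjusted p = 9.86e-07). The smallest called falls were those of Cited2, a feedback inhibitor of the factor, and the adenylate kinase gene Ak4, both at -0.18.

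**Figure D3:**
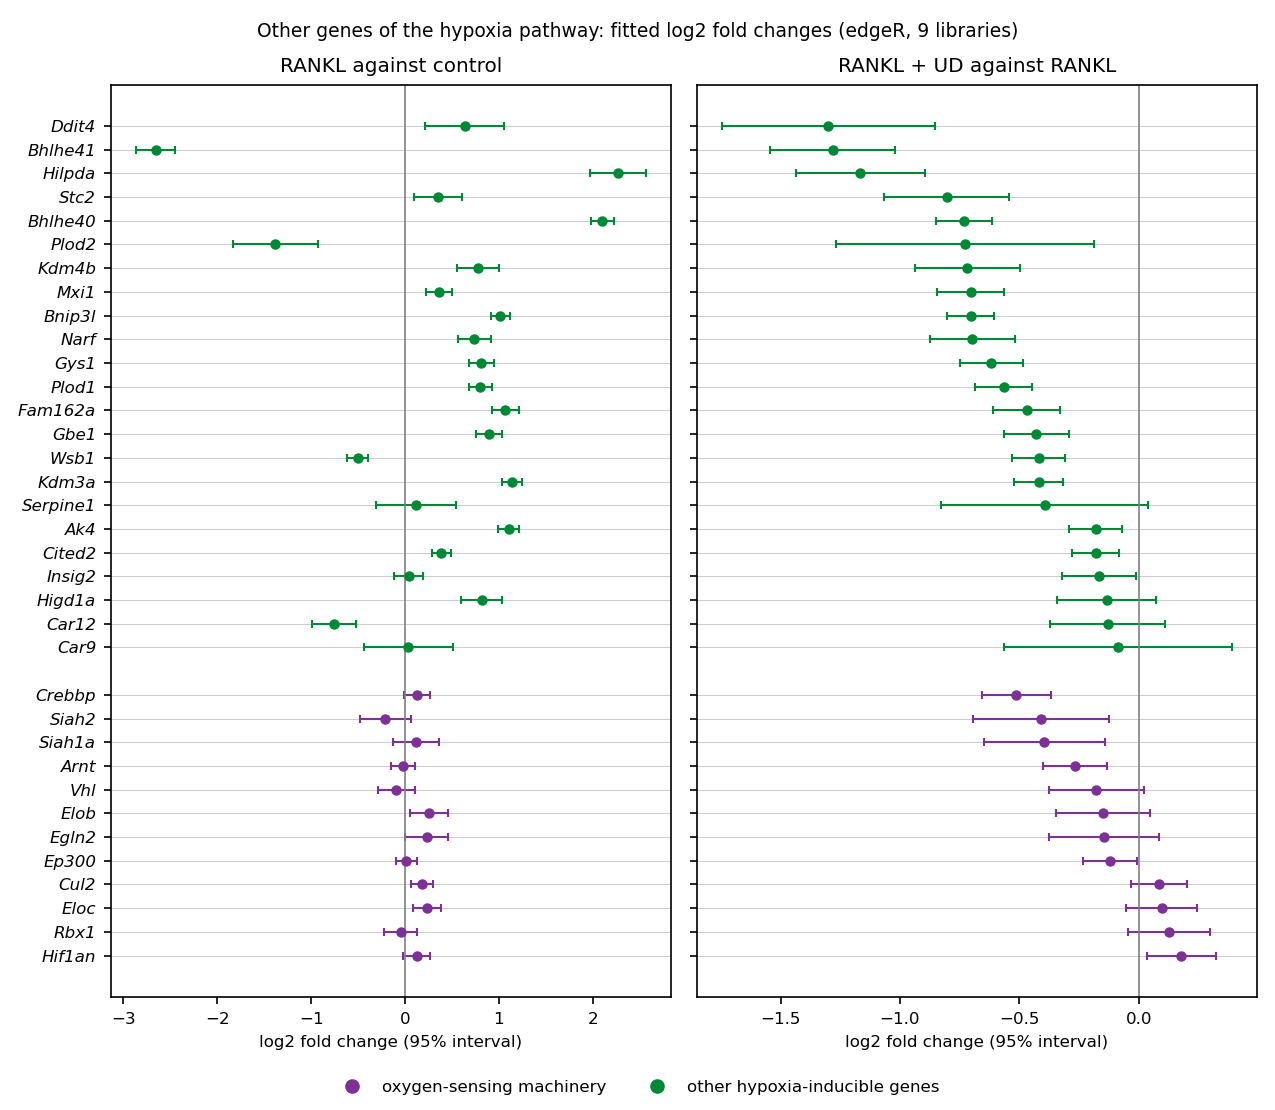
Fitted log2 fold changes with 95% intervals (horizontal axes) of 23 other hypoxia-inducible genes and 12 genes of the oxygen-sensing machinery, for RANKL against control and RANKL + UD against RANKL. The hypoxia-inducible genes all lay below 0 on the right, 18 of them called, while the machinery genes lay between -0.51 and 0.18.

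Both sets can be compared library by library in the heatmap of differences from the control mean. Within the RANKL libraries Ndrg1 stayed pale and in the RANKL + UD libraries it was among the most negative, whereas Adm, Hilpda and Bhlhe40 were strongly positive in both. No single library carried the pattern of a gene such as Bnip3 or Ero1a.

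**Figure D4:**
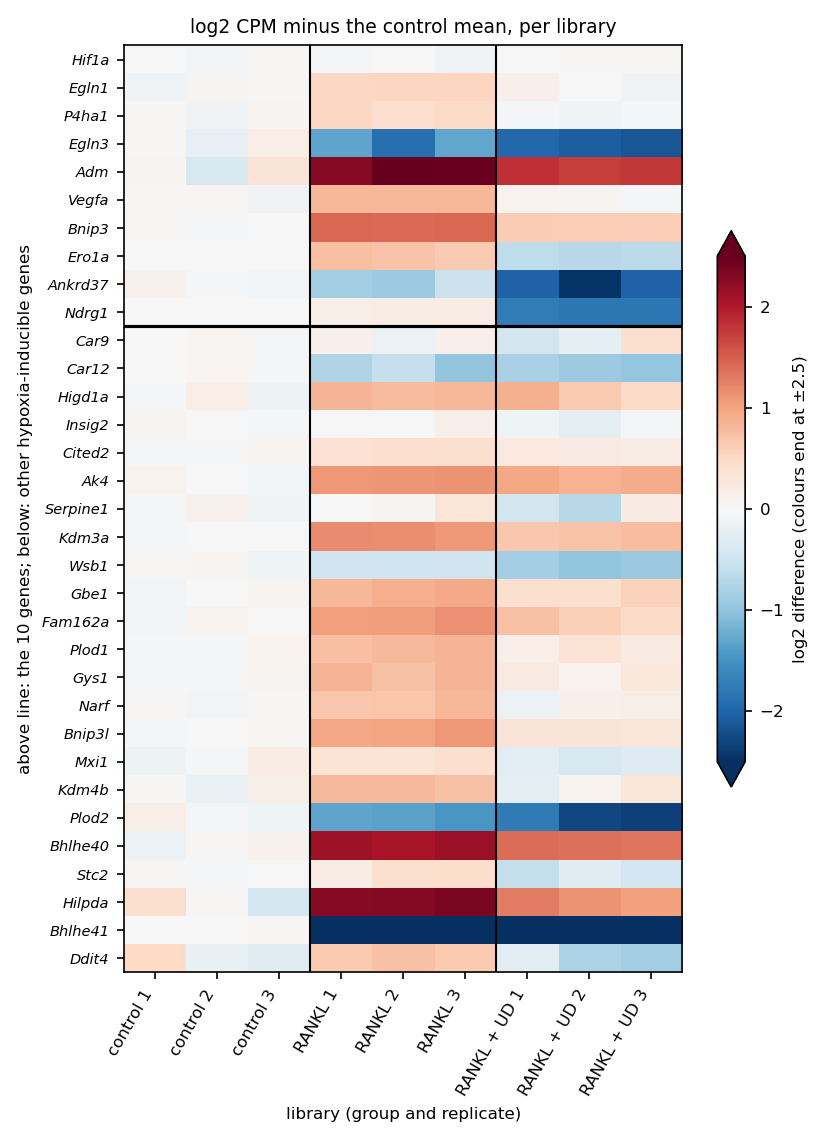
Log2 CPM of each library minus the mean of the 3 control libraries (color, ending at ±2.5) for the 10 genes above the line and 23 other hypoxia-inducible genes below it, with libraries as columns. Ndrg1, Ankrd37 and Egln3 are blue in all RANKL + UD libraries, and Adm is red in all RANKL and RANKL + UD libraries.

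Glycolytic genes that respond to the same factor are named only for comparison. Of 18 tested, 16 rose with RANKL and 1, Pfkfb4, fell (median log2 fold change 0.78), where 27.3% of all tested genes rose and 30.2% fell. With uridine added 16 fell and 0 rose, all 18 having negative values (median -0.34). In that comparison 20.2% of all tested genes fell and 18.6% rose. Their differences with uridine ran from -0.73 for the glucose transporter gene Slc2a1 to -0.12. Against control, 14 of the 18 were higher in RANKL + UD and 2 were lower, where 26.7% of all tested genes were higher and 27.3% lower.

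The ligands and receptors around Vegfa and Adm did not move as one. Of 13 listed genes 6 were tested, and with RANKL 3 rose (Vegfb, Vegfc and Nrp2) and 3 fell (Flt1, Nrp1 and Calcrl). Over all tested genes 27.3% rose and 30.2% fell with RANKL. Vegfc, a lymphatic vessel growth factor, went from a mean of 0.78 FPKM in control to 16.3 in RANKL (log2 4.50 ± 0.14, adjusted p = 1.32e-16) and 12.8 in RANKL + UD (-0.43 ± 0.10 against RANKL, adjusted p = 0.00162). Calcrl, the receptor through which adrenomedullin acts, read 31.64, 32.32 and 28.57 FPKM in control, 14.94, 15.52 and 14.65 in RANKL, and 8.34, 8.89 and 9.46 in RANKL + UD. It was lower at both steps with no overlap, by 0.95 ± 0.06 and then by 0.84 ± 0.06 on the log2 scale (adjusted p = 1.31e-11 and 1.93e-09 in edgeR), while its ligand gene Adm was higher than control in both treated groups. Ramp2 and Ramp3 encode the partners with which Calcrl forms adrenomedullin receptors, and Ramp1 the partner with which it forms the receptor for a related peptide. Ramp1, Ramp2 and Ramp3 had at most 5, 1 and 1 counts in any library. With uridine added, Vegfc and Calcrl fell and 0 of the 6 rose, at an adjusted or an unadjusted p under 0.05 in edgeR. At an adjusted p under 0.05, 20.2% of all tested genes fell and 18.6% rose in that comparison.

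The identity of the cells was checked against marker genes, and the groups differed in it. Summed FPKM of 10 osteoclast markers was 57.6 to 60.3 in control, 2720 to 2920 in RANKL and 1720 to 1760 in RANKL + UD libraries, and all 9 tested markers rose with RANKL and fell with uridine added. Summed FPKM of 8 macrophage markers was 8900 to 9490, 2370 to 2600 and 2070 to 2200 in the same order. Most of this sum was Lyz2, with means of 8000, 1430 and 1290. Of the 7 tested macrophage markers, 6 fell with RANKL and 1, Cd68, rose (log2 0.60). With uridine added 5 fell and 1, Adgre1, rose (log2 0.22). Over all tested genes 27.3% rose and 30.2% fell with RANKL, and 18.6% rose and 20.2% fell with uridine added. Fibroblast and osteoblast, endothelial, and epithelial and lymphoid markers summed to at most 0.95, 0.34 and 0.4 FPKM in any library. The osteoclast markers moved with the same sign as Adm, Bnip3, Vegfa, Ero1a, Egln1, P4ha1 and Ndrg1 in both comparisons, and their part in these differences was not tested. Total counts were 15951800 to 19746862 a library, with a median of 19182637.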

How the data were processed

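RNA of 9 RAW264.7 libraries was sequenced, 3 a group, after poly(A) selection and strand-marking library construction per the labels. The authors deposited 1 table of read counts per gene, without normalization, and FPKM values made from those counts, gene length and each library's total. The value columns call the RANKL libraries the model group, the name the paper gives them. The submitters' processing notes name mm10. The aligner, counter, annotation release and strand setting are not given in the sources used here.

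Genes that reached 1 FPKM in 3 or more libraries (11995 of 56691) were tested on the deposited counts with edgeR 4.0.16 in R 4.3.3, using TMM scaling, the quasi-likelihood test over all 9 libraries, Benjamini-Hochberg adjustment and a threshold of 0.05. The script was tested on simulated counts in which 200 of 11995 genes were changed. Far more genes were called in the data, so that run does not bear on the choice of scaling. Python 3.11.15 with pandas 2.3.3 and numpy 2.4.6 made the summaries. Alternatives were DESeq2 1.42.0, limma 3.58.1 on log2(FPKM + 1) and log2(FPKM + 0.1), RLE and total-count scaling, no expression filter, the 6 libraries of a comparison alone, a replicate block and leaving out each library. The 10 genes and all lists were chosen with earlier results of these data known. Of the other lists, the text names up to 6 genes with the largest and 2 with the smallest called change among those whose libraries did not overlap, and genes never above 3 counts. Paralogs, genes behind counts of 5 or fewer, Vhl, Rbx1 and genes under the expression filter were named after their values were seen. Promoter windows came from RefSeq, GRCm38.p6. Of 52073 genes shared with the GRCm38 annotation, 1472 had identical coordinates in the table. Intervals cover the spread between libraries.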

Additional observations from a re-analysis of the deposited data

How the results depend on the processing

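Of 420 fold changes of the 10 genes refitted, 398 kept their direction and their side of the threshold. Hif1a accounted for 6 that gained a call and Egln3 and Ndrg1 for 12 that lost 1. The count of genes higher in RANKL + UD than in RANKL was 0, but 1 (Hif1a) under limma on log2(FPKM + 1), limma on log2(FPKM + 0.1) and total counts. The fall of Egln3 with uridine was lost in 5 of 6 fits that each left out 1 library, all but the one without RANKL replicate 2, at adjusted p from 0.056 to 0.125, and at 0.0776 and 0.108 with limma and 0.0673 with total counts. The differences of Hif1a, Egln1 and Vegfa between RANKL + UD and control, which were not called, changed sign in some fits. Over all settings the log2 fold change ran from -0.015 to 0.049 for Hif1a. It ran from -0.042 to 0.068 for Egln1 and from -0.002 to 0.073 for Vegfa. In the oxygen-sensing machinery, genes higher with RANKL numbered 3, but 0 under both limma fits and total counts, and genes lower numbered 0 to 1 when a library was left out (1 without RANKL replicate 2 or control replicate 1). With uridine added, 1 was higher, but 0 with DESeq2, RLE and no expression filter and in all fits without 1 library, 2 under both limma fits and 4 with total counts. The 4 that were lower became 2 under both limma fits and 2 to 5 without 1 library, the 2 without RANKL + UD replicate 2. Without the expression filter, 1 of the other hypoxia-inducible genes, Stc1, was higher with uridine added. The cause of these shifts was not tested. Whether replicate numbers pair the samples was not settled. Correlations of deviations between same-numbered libraries were low, at -0.032 to 0.074. Every control library correlated best with its own number among the RANKL libraries. Among the RANKL + UD libraries, replicates 1 and 3 of control and of RANKL did so and replicate 2 did not. A replicate block left 7 and 2 of the 10 genes called higher and lower with RANKL and 0 and 9 with uridine added, the same counts as without it. Over all tested genes, calls with RANKL went from 3278 higher and 3628 lower to 3346 and 3694 with the block. Those with uridine added went from 2233 and 2418 to 2347 and 2518. The median of all genes shifted by -0.088 and 0.086 under total-count scaling in these comparisons.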

Other observations

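Some listed genes fell under the expression filter and are given here because of their values. Stc1, which encodes the glycoprotein hormone stanniocalcin and is a known target of the factor, had 0, 0 and 0 counts in control, 8, 4 and 15 in RANKL, and 53, 56 and 52 in RANKL + UD. In a fit with no filter, edgeR gave a log2 fold change of 2.61 ± 0.43 for RANKL + UD against RANKL (adjusted p = 3.29e-08), the single gene of the list of 30 that was called higher there.

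Placental growth factor, encoded by Pgf, had 4, 3 and 4 counts in control, 41, 39 and 48 in RANKL, and 8, 0 and 4 in RANKL + UD. Without the filter its log2 fold changes in edgeR were 3.44 ± 0.53 with RANKL (adjusted p = 7.44e-10) and -3.35 ± 0.52 with uridine added (adjusted p = 3.74e-09). Rora, a nuclear receptor gene, had mean FPKM of 0.173 in control, 0.383 in RANKL and 0.177 in RANKL + UD, with log2 fold changes of 1.25 ± 0.24 (adjusted p = 1.39e-06) and -1.22 ± 0.24 (adjusted p = 5.37e-06). P4ha2, the paralog of P4ha1, had mean FPKM of 0.71, 0.34 and 0.253, and its log2 fold change with RANKL was -0.955 ± 0.26 (adjusted p = 0.00117).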
